A study of Rattus norvegicus with 8 samples.

Results

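The mitochondrial pyruvate carrier and the pyruvate dehydrogenase system were followed on 1-colour Illumina rat beadchips in thigh muscle from 8 rats of the outbred Han Wistar stock. They comprise 10 genes: Mpc1 and Mpc2 for the carrier, Pdha1, Pdhb, Dlat, Dld and Pdhx for the complex, and Pdk2, Pdk4 and Pdp1 for its regulation. Every probe whose current or older gene symbol in the array's annotation was one of these genes was taken. This gave 9 of the 22523 probes on the array, 1 for each of 9 genes, and no probe is listed for Pdha1. All 9 probes were above background (detection p under 0.05) on all 8 arrays and all 9 were tested. The symbols of the carrier subunits are the current ones, Brp44l being the older symbol of Mpc1 and Brp44 that of Mpc2.

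The 4 treated rats had received compound 197, a code-named substance that the labels call a sulfonyl isoxazoline, in their feed at 150 ppm for 28 days. The 4 control rats ate standard laboratory chow without it. The animals were of 1 stock with no genetic change given, each rat supplied 1 sample and each sample 1 array. The sources used here give no age and no assignment to cages, slides or scans. By its title, the series is about mitochondrial toxicity in muscle.

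Pyruvate, the end product of glycolysis, enters the mitochondrial matrix through a carrier in the inner membrane that is built from MPC1 and MPC2, and each subunit depends on the other for its stability. In the matrix the pyruvate dehydrogenase complex converts pyruvate to acetyl-CoA, the fuel of the citric acid cycle. PDHA1 and PDHB form its decarboxylase, DLAT is the acetyltransferase that makes up the core, DLD is a lipoamide dehydrogenase shared with other matrix complexes, and PDHX binds DLD to the core. Pyruvate dehydrogenase kinases such as PDK2 and PDK4 phosphorylate the decarboxylase and switch it off, and the phosphatase PDP1 switches it on again. In skeletal muscle PDK4 is known for its rise in fasting, when fatty acids replace glucose as fuel.

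Muscle of the treated rats carried far more signal from the Mpc1 probe than control muscle, a smaller rise of Mpc2, and modestly lower signal from most of the complex and its regulators under the main normalization. Values are log2 intensities after background correction and quantile normalization, and groups were compared with limma (linear model with moderated variances) with Benjamini-Hochberg adjustment over all 9873 probes tested. At an adjusted p under 0.05, 2 of the 9 member probes were higher, 5 were lower and 2 were not called. The treatment moved much of the array, with 40.5% of all tested probes called, 16.3% higher and 24.2% lower. The median change of all tested probes was -0.18 on the log2 scale. The 5 lower calls depend on how arrays were scaled, since all 5 lay above 0 with median scaling. There the median change of all tested probes was 0.31, and all 5 lay below it.

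On a control array 8310 to 9507 probes were above background, and on a compound 197 array 9743 to 10498. The lowest raw intensity was 59.3 to 61.6 on control arrays and 51.1 to 55.5 on compound 197 arrays. Levels correlated with r of 0.960 to 0.987 within a group and 0.890 to 0.931 between groups, over the 9873 tested probes. Genes of a fast-fibre list marked the tissue as skeletal muscle: 7 of the 10 listed have a probe and all 7 were detected on all 8 arrays. The summed intensity of the 7 was 235200 to 248700 in control muscle and 269400 to 284700 in treated muscle. The sum includes Acta1 and Ckm, which are not particular to fast fibres. Of the 7, 2 were called higher on the log2 scale, Myh4 (3.63) and Tnni2 (1.48), beside 16.3% of all tested probes. The other 5 were not called with quantile normalization: Acta1 (-0.054), Ckm (0.055), Tnnt3 (-0.005), Tnnc2 (0.059) and Actn3 (0.075). With median scaling 6 of the 7 were called higher and 0 lower, beside 23.2% and 1.91% of all tested probes. Their median change was then 0.65, against 0.31 for all tested probes. Cyclic loess gave 2 higher and 0 lower, beside 19.4% and 8.02%. Whether the difference in the sum plays a part in the values below was not tested. The number of arrays limits the precision, and in bulk muscle fewer cells of a type and less RNA per cell cannot be told apart.

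Mpc1, a subunit of the pyruvate carrier, changed more than any other gene of the system. Its log2 intensity was 8.51, 8.02, 7.63 and 8.37 in control replicates 1 to 4, and 12.05, 12.15, 11.80 and 12.16 in compound 197 replicates 1 to 4. Every treated rat lay far above every control rat, and the control rats were the more spread. The means were 8.13 ± 0.39 and 12.04 ± 0.17 (SD, n = 4 each), a rise of 3.90 ± 0.19 (SE), or 14.95-fold, with a 95% interval of 3.47 to 4.34 and a limma adjusted p of 5.1e-07. The separation was already present in the deposited non-normalized intensities, at 230 to 453 in control muscle and 3730 to 5451 in treated muscle. Only 57 of the 9873 tested probes had a higher change. Its rise depended on the background correction, being 3.58 without any and 3.64 with normexp, and it lay between 3.75 and 4.02 on leaving out each array in turn.

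Mpc2, the other subunit, rose by much less, from a lower reading, with a detection p of up to 0.00606. Its log2 intensity was 7.68, 6.75, 7.03 and 7.11 in control replicates 1 to 4, and 7.83, 8.20, 7.49 and 7.90 in compound 197 replicates 1 to 4. Control replicate 1 lay above compound 197 replicate 3, so the groups overlapped. The means were 7.14 ± 0.39 and 7.86 ± 0.29 (SD, n = 4 each), and the rise was 0.71 ± 0.22 (SE), or 1.64-fold, with a limma adjusted p of 0.0274. In non-normalized intensities Mpc2 read 172 to 287 in control muscle and 266 to 352 in treated muscle. The call passed on leaving out control replicate 1 (adjusted p = 0.00746) or compound 197 replicate 3 (adjusted p = 0.0214). On leaving out any other array it was lost, with limma adjusted p from 0.0556 without compound 197 replicate 1 to 0.0705 without compound 197 replicate 2. The rise of Mpc2 stayed above 0 under each of these omissions, from 0.58 to 0.88.

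**Figure D1:**
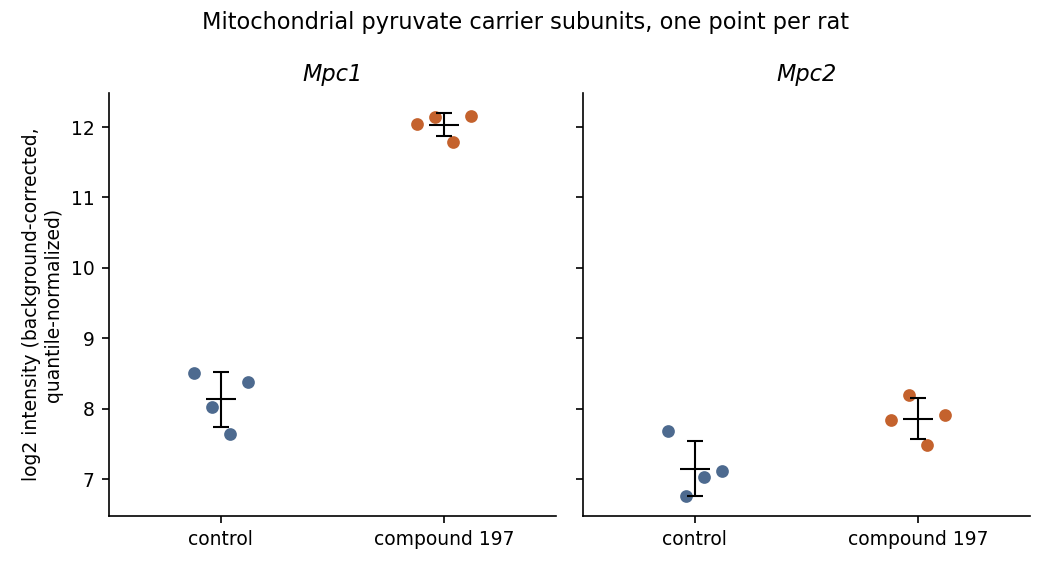
Log2 intensity (vertical axis, background-corrected and quantile-normalized) of Mpc1 and Mpc2 in 4 control and 4 compound 197 rats; each point is a rat, and bars are the mean ± SD. The treated rats lie at 11.80 to 12.16 for Mpc1 against 7.63 to 8.51 in controls, whereas the groups overlap for Mpc2.

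The start regions of the carrier genes are shown because their subunits form 1 protein complex while the signals of their probes changed by different amounts. They are RefSeq windows of the GRCr8 assembly from 250 bases before to 50 bases after the annotated start, read 5′ to 3′ on the strand of the gene. Mpc1 is at chr1:54996909-54997208 on the minus strand and Mpc2 at chr13:80261006-80261305 on the plus strand. Capitals mark matches on either strand to a searched motif.
Mpc1: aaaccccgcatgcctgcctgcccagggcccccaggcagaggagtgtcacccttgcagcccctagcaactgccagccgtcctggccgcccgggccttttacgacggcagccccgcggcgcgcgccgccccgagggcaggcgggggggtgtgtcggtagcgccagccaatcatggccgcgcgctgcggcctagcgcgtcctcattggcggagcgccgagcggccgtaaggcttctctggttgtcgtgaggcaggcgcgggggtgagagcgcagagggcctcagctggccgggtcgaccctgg
Mpc2: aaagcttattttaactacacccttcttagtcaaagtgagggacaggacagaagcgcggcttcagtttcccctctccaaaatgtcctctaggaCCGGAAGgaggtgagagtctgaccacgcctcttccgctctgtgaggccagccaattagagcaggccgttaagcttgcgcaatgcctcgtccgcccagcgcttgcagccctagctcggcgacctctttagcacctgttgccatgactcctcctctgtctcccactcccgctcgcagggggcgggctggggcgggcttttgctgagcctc
The Mpc1 window held 73.3% G and C and no match to the 4 motifs searched, and the Mpc2 window held 58.7% and the ETS-type motif CCGGAAG, 158 bases before the start. That motif occurs in 8.75% of the 33469 promoters of the same length. The other motifs were the nuclear receptor element AGGTCA and the FOXO-type element GTAAACA and the NRF1 core CGCATGCG, none of them overlapping in the windows shown. A match is a description of the letters in the window.

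The ratio of Mpc1 to Mpc2 within each array removes any scaling shared by both probes. The ratio itself has no meaning as an amount, since probes differ in brightness. A constant factor of brightness drops out of its difference between groups, but the effect of the background correction on dim probes does not. The log2 ratio was 0.99 ± 0.33 in control muscle and 4.18 ± 0.16 in treated muscle (SD, n = 4 each), with ranges of 0.61 to 1.26 and 3.95 to 4.31. The groups did not overlap, and the difference was 3.19, or 3.08 without background correction. An exact permutation test gave a two-sided p of 0.0286, the smallest that 4 against 4 can give, and 0.171 after adjustment over the 6 pairs compared. No pair could therefore pass 0.05 alone after that adjustment.

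Each member gene is read by a single probe, so the rise of Mpc1 has no second reading on the array. Among the 124 genes with 2 tested probes, 4 probes were called higher by 2 or more on the log2 scale and were detected on all control arrays. The partner probes of those 4 changed by -0.72 to -0.14, and 0 of them rose by 2 or more. Over all tested probes 413 rose by at least 2 and 11 fell by at least 2. Whether the size of the Mpc1 rise would be read by a probe to another stretch of its transcripts was not tested.

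The measured subunits of the complex, Pdhb, Dlat, Pdhx and Dld, had small changes close to each other. Pdhb, which with PDHA1 forms the decarboxylase, read 13.73, 13.23, 13.55 and 13.73 in control replicates 1 to 4 and 13.14, 13.36, 12.78 and 13.10 in compound 197 replicates 1 to 4. Compound 197 replicate 2 lay above control replicate 2, and otherwise every treated rat was below every control. The means were 13.56 ± 0.24 and 13.09 ± 0.24 (SD, n = 4 each), a change of -0.47 ± 0.16 (SE) with a limma adjusted p of 0.0442. Its change was 0.13 with median scaling, where the median change of all tested probes was 0.31.

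Dlat, the acetyltransferase of the core, read 11.12, 10.89, 11.002 and 11.37 in the controls and 10.89, 10.82, 10.68 and 10.39 in the treated rats. Compound 197 replicate 1 reached the level of control replicate 2, and the change of -0.40 ± 0.15 (SE) missed the threshold, with a limma adjusted p of 0.0579 and a 95% interval of -0.73 to -0.06. Pdhx, the protein that binds DLD to the core, read 12.66, 12.26, 12.62 and 12.66 in the controls and 12.23, 12.22, 12.05 and 12.02 in the treated rats. Every treated rat was below every control rat, though control replicate 2 lay only just above, and the change was -0.42 ± 0.12 (SE, limma adjusted p = 0.0237). Dld, the lipoamide dehydrogenase, read 11.94, 11.68, 12.03 and 11.91 in the controls and 11.55, 11.58, 11.27 and 11.47 in the treated rats. Here too the groups did not overlap, and the change was -0.42 ± 0.12 (SE, limma adjusted p = 0.0193). With median scaling Pdhx and Dld both lay above 0, at 0.20 and 0.19, but below the median change of all tested probes of 0.31.

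The calls on the subunits were close to the threshold when single arrays were left out. Pdhb passed without control replicate 2 (adjusted p = 0.0177) or compound 197 replicate 2 (adjusted p = 0.0327) and was lost without any other array, with limma adjusted p up to 0.107 without compound 197 replicate 3. Pdhx lost its call when control replicate 1, 3 or 4 was omitted, and likewise compound 197 replicate 3 or 4, with limma adjusted p from 0.0551 to 0.0650. Dld was lost without compound 197 replicate 3 alone (limma adjusted p = 0.0524). Dlat, not called on all 8 arrays, passed without control replicate 2 (limma adjusted p = 0.0425). All 4 subunits stayed below 0 in each omission, between -0.57 and -0.29.

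The start region of Pdhb is shown because, of the 8 member genes with a window in the RefSeq table, it is the one that held 2 of the 4 motifs. It lies at chr15:19182539-19182838 on the plus strand in GRCr8, with the matches in capitals.
Pdhb: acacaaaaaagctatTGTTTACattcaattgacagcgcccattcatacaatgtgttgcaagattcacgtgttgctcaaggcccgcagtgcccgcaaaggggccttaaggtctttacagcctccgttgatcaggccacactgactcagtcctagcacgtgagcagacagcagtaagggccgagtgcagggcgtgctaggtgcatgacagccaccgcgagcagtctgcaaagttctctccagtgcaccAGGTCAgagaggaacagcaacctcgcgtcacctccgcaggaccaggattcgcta
The FOXO-type element lies 235 bases before the start, on the reverse strand, and occurs in 3.78% of all 33469 promoters. The nuclear receptor element AGGTCA, 6 bases long, begins 4 bases before the start and runs across it, and it occurs in 16.2% of them. AGGTCA was also found in Dlat, 40 bases before the start, which made 2 of the 8 member windows, while the NRF1 core, found in 1.66% of all promoters, was in 0 of the 8.

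The kinases and the phosphatase, which act against each other on the complex, all had changes below 0 with quantile normalization and above 0 with median scaling. With median scaling the median change of all tested probes was 0.31. Pdk4, the kinase raised by fasting in muscle, read 13.07, 13.43, 13.49 and 13.60 in control replicates 1 to 4 and 12.89, 12.94, 13.16 and 12.83 in compound 197 replicates 1 to 4. Compound 197 replicate 3 lay above control replicate 1, and the other treated rats were below every control. The means were 13.40 ± 0.23 and 12.95 ± 0.15 (SD, n = 4 each), a change of -0.44 ± 0.14 (SE, limma adjusted p = 0.0296), which was 0.17 with median scaling. The call passed without control replicate 1 (adjusted p = 0.00915) or compound 197 replicate 3 (adjusted p = 0.0275) and was lost without any other array, with limma adjusted p from 0.0553 to 0.0758.

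Pdk2, a kinase expressed in many tissues, read 12.16, 11.87, 11.70 and 11.96 in the controls and 11.72, 11.82, 11.59 and 11.55 in the treated rats. The groups overlapped, and the change of -0.25 ± 0.12 (SE) was not called, with a limma adjusted p of 0.137 and a 95% interval of -0.53 to 0.03. Pdp1, the phosphatase that responds to calcium in muscle, read 10.80, 11.10, 11.18 and 11.06 in the controls and 10.68, 10.57, 10.46 and 10.51 in the treated rats. No treated rat reached a control rat, though control replicate 1 stood nearer to them than the other controls did. The change was -0.48 ± 0.11 (SE, limma adjusted p = 0.00897), which was 0.11 with median scaling, and with quantile normalization it passed on leaving out each array in turn, at -0.56 to -0.44.

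The start region of Pdk4, the member known for its response to fasting, lies at chr4:34568280-34568579 on the minus strand in GRCr8 and holds none of the 4 motifs. It contains 61.3% G and C.
Pdk4: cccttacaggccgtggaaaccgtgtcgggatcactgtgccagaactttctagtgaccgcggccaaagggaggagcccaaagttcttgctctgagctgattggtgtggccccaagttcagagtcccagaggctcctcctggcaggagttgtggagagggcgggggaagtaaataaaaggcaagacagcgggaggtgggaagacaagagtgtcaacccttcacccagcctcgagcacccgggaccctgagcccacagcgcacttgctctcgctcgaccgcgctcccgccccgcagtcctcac
No match says only that these letters are not in this window.

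The 7 genes of the complex and its regulators were also counted by rat, with quantile normalization. In compound 197 replicates 1 to 4, 5, 5, 6 and 7 of the 7 lay below every control rat, beside 42.3%, 40.4%, 40.0% and 41.4% of all tested probes. In control replicates 1 to 4, 6, 5, 6 and 7 of the 7 lay above every treated rat, beside 48.6%, 48.6%, 44.2% and 44.9% of all tested probes. The 7 changes ran from -0.25 to -0.48 with a median of -0.42, and the folds of control over treated muscle from 1.19 to 1.40. The 7 are among the 5875 probes with a detection p under 0.01 on all 8 arrays. Over those 5875 the median change was -0.27, against -0.18 over all tested probes. When those 5875 were tested alone, limma called 2040 of them lower, 6 members included. In the non-normalized intensities all 7 overlapped between the groups, Pdhb for example at 9033 to 14735 in controls and 7227 to 10562 in treated rats.

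**Figure D2:**
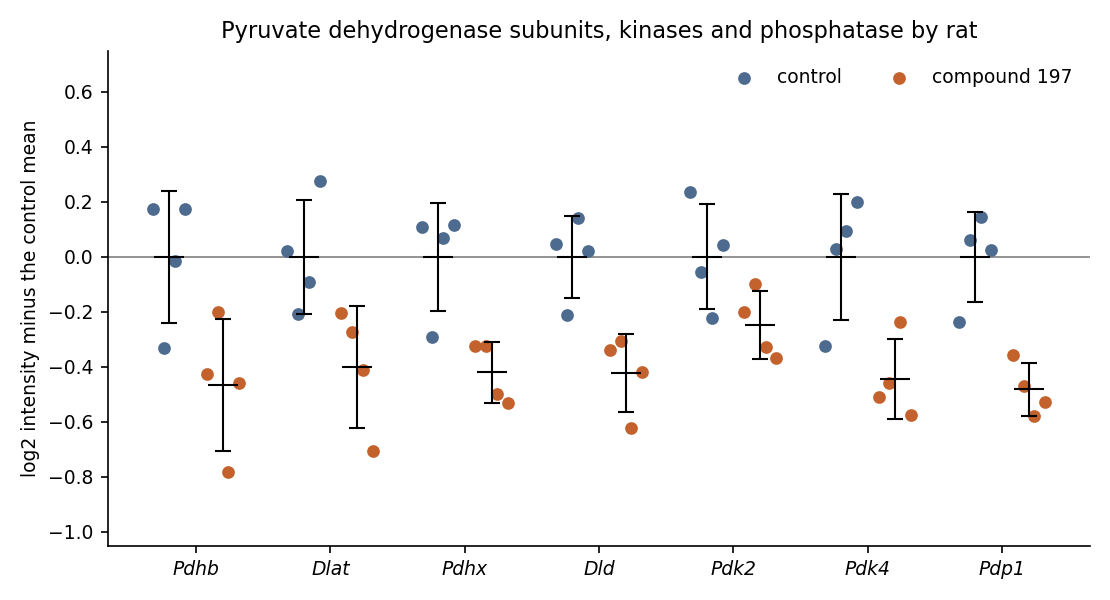
Log2 intensity minus the control mean (vertical axis, quantile-normalized) for 7 genes of the pyruvate dehydrogenase complex, its kinases and its phosphatase; each point is a rat and bars are the mean ± SD of 4. Treated rats sit lower for each gene with this normalization and the groups do not overlap for Pdhx, Dld and Pdp1. With median scaling the changes of all 7 lay above 0, where the median change of all tested probes was 0.31.

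Over the 9 measured members, 4 had groups that did not overlap, namely Mpc1, Dld, Pdhx and Pdp1, against 40.0% of all tested probes. The 5 lower calls were therefore read against the shift of the whole array. Relative to the median change, Mpc1 stood at 4.08 and Mpc2 at 0.89, while the 7 enzyme and regulator genes stood between -0.30 and -0.07. Tested against that median, the 2 carrier genes were still called higher, beside 19.7% of all tested probes, and 0 of the 7 were called lower by limma, beside 8.53%, with 1, Pdp1, at an unadjusted p under 0.05. With median scaling, where the median change of all tested probes was 0.31, Mpc1 and Mpc2 were again called higher, at 4.50 and 1.36, beside 23.2% of all probes. By limma 0 members were called lower there, beside 1.91% of all probes, also at an unadjusted p under 0.05, and the changes of the 7 lay between 0.11 and 0.36. With cyclic loess, where the median was -0.01, limma called the 2 carrier genes higher, beside 19.4% of all probes, and 0 members lower, beside 8.02%, with 1 lower at an unadjusted p under 0.05. The lower calls were thus made with quantile normalization and lost with the other scalings, and the rises of the carrier genes were called in each.

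**Figure D3:**
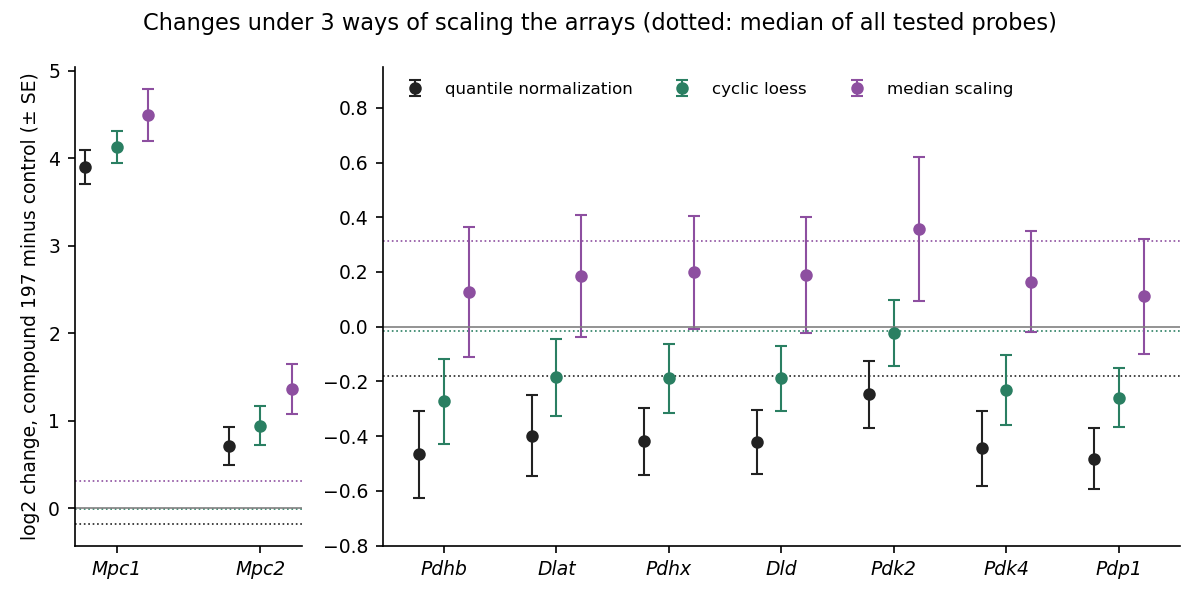
Log2 change with its SE (vertical axes) of the 9 measured genes under quantile normalization, cyclic loess and median scaling, with dotted lines at the median change of all tested probes under each. Mpc1 and Mpc2 lie above 0 under all 3, whereas the other 7 lie below 0 with quantile normalization and cyclic loess and above 0 with median scaling.

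Ratios within an array compare the members with no scaling shared between probes. Dlat over Pdhx differed by 0.02 between the groups and Dlat over Dld by 0.02, with exact permutation p of 0.914 and 0.886 (two-sided, 4 against 4). Pdk4 over Pdk2 was 1.48 ± 0.39 in control and 1.28 ± 0.20 in treated muscle (SD, n = 4 each, exact permutation p = 0.400). Pdp1 over Pdk2 was -0.89 ± 0.35 and -1.12 ± 0.10 (SD, n = 4 each, exact permutation p = 0.257), and Pdp1 over Pdk4 was -2.36 ± 0.12 and -2.40 ± 0.21 (exact permutation p = 0.771). Both ratios over Pdk2 depended on control replicate 1. Without it Pdp1 over Pdk2 differed by -0.39 instead of -0.23 and no longer overlapped. The exact permutation p was 0.0286, the smallest that the arrays left can give, and 0.0857 after adjustment. Pdk4 over Pdk2 then differed by -0.39 instead of -0.20 (exact permutation p = 0.0857, adjusted 0.171). Without control replicate 3 these differences were -0.11 and -0.091. On all arrays, after adjustment over the 6 pairs, the 5 ratios had p of 0.771 to 0.914. The ratio of Pdha1 to Pdhb was not analysed here.

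**Figure D4:**
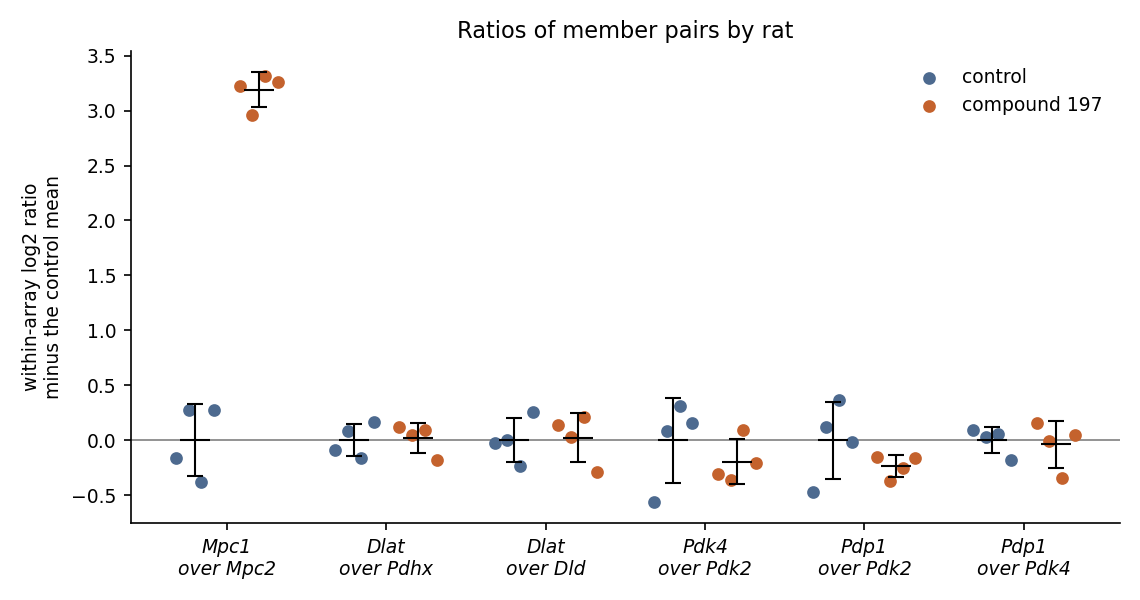
Log2 ratio of 2 member probes within an array, minus the control mean (vertical axis), for 6 pairs; each point is a rat and bars are the mean ± SD of 4. Only Mpc1 over Mpc2 separates the groups among these pairs, by 3.19, and the other 5 differ by at most 0.23.

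How the members varied between rats of the same group was described by the deviations from the group means over all 8 arrays. Pdhb, Dld and Pdhx went together, with r of 0.85 for Pdhb and Dld, 0.82 for Pdhb and Pdhx, and 0.81 for Dld and Pdhx, and Dlat followed Pdhx at 0.75. Pdk2 ran against Pdk4 (r of -0.53) and against Pdp1 (-0.53), while Pdk4 and Pdp1 went together at 0.48. Over all 21 pairs of the 7 genes r ran from -0.53 to 0.85 with a median of 0.24, and 14 were above 0. The deviations of Mpc1 and Mpc2 had an r of 0.69, those of Mpc1 and Pdk2 of 0.82 and those of Mpc2 and Pdhb of 0.86. These points share their arrays and the normalization, so the values are descriptions.

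The amount of slow-fibre signal differed widely between rats, with sums over 8 marker probes of 81930, 7112, 73870 and 16890 in control replicates 1 to 4. The sums were 25590, 31510, 18890 and 104400 in compound 197 replicates 1 to 4. Control replicate 2, with the lowest sum, also had the lowest Pdhb, Dlat, Dld and Pdhx of its group, and compound 197 replicate 3, the lowest of the treated rats, had the lowest Pdhb and Dld of its group. Compound 197 replicate 4, with the highest sum, had the lowest Dlat and Pdhx of its group. By limma 0 of the 8 slow-fibre markers were called between the groups, also at an unadjusted p under 0.05, and the sums overlapped, and their part in the results was not tested. Among markers of other cells, Fabp4 of adipocytes (0.88, adjusted p = 0.00988) and Cd74 of leukocytes (1.08, adjusted p = 0.0173) were called higher by limma. Fabp4 was 1 of 4 adipocyte markers tested, with Adipoq at 0.78 (adjusted p = 0.124), Cfd at 0.16 (0.892) and Cidec at -0.31 (0.243) by limma. Cd74 was the single leukocyte marker tested, and Ptprc and Cd3e were each above background on 1 of 8 arrays. The adipocyte list summed to 3183 to 5173 in control and 3496 to 13480 in treated muscle over the 6 of its 7 genes with a probe, with Lep and Retn detected on no array. The leukocyte list summed to 164 to 215 and 195 to 324 over 4 of its 7, with Itgam detected on no array. Their part in the results was not tested either, and limma called 0 markers of endothelium, fibroblasts, Schwann cells and erythroid cells, with 1 Schwann cell marker lower at an unadjusted p under 0.05.

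The named genes whose levels over the 8 arrays ran most like those of a member were listed for each called member, by Pearson r and with no test. For Mpc1 they were Rpl24 (r = 0.999), a ribosomal protein, Ufd1 (0.998), a cofactor in protein degradation, and Tmem140 (0.998), with rises of 2.32, 3.44 and 3.65. For Mpc2 they were Hint2 (0.97), a mitochondrial nucleotide hydrolase, Mrps26 (0.97), of the mitochondrial ribosome, and Sirt2 (0.97), a deacetylase. For Pdhb they were Timm17a (0.97), of the inner membrane import machinery, Uqcrc1 (0.97), of respiratory complex III, and Trrap (0.96). For Dld they were Fgfr4 (0.99) and the ATP synthase subunits Atp5f1c (0.99) and Atp5f1d (0.97). For Pdhx they were Lrpprc (0.99), which binds mitochondrial mRNAs, Timm17a (0.98) and Pex19 (0.98). Pdk4 had Psmb1 (0.99), Crcp (0.97) and Ppp2r5c (0.97), and Pdp1 had Foxk2 (0.99), Zfp330 (0.99) and Bnip3l (0.98). These r hold the difference between the groups as well as the spread within them.

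Genes that act around the system were taken as lists, and each list is given by its counts beside the median change of all tested probes of -0.18 and the 16.3% of them called higher and 24.2% called lower. Of 11 other regulators and cofactor genes of the complex, 8 have a probe and 7 were tested: 0 were higher, 2 lower and 5 not called, with a median of -0.27. With median scaling 0 of the 7 were called lower by limma, beside 1.91% of all probes, and with cyclic loess 1 was, beside 8.02%. The 2 of 7 lower stand beside 24.2% of all tested probes. The lower genes were Sirt3, the main mitochondrial deacetylase, at -0.59 ± 0.094 (SE, limma adjusted p = 0.00139), and Lipt2, which acts in lipoylation, at -0.36 ± 0.12 (limma adjusted p = 0.0372). The kinase Pdk1 was not called, at -0.13 (limma adjusted p = 0.483).

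Of 16 genes that make, carry or use pyruvate, 14 have a probe and were tested: 1 was higher, 2 lower and 11 not called, with a median of 0.10, beside 16.3% higher and 24.2% lower over all probes. With median scaling, where 23.2% of all probes were higher and 1.91% lower, 7 of these genes were called higher and 0 lower. Cyclic loess gave 3 and 1, beside 19.4% and 8.02%. Me2, a tested gene of this list, was above background on 4 treated and 1 control array and entered the test through the treated rats. Basigin (Bsg), the partner of the lactate and pyruvate transporters of the plasma membrane, was higher at 0.43 ± 0.12 (SE, limma adjusted p = 0.0180). Citrate synthase (Cs), which takes up the acetyl-CoA made by the complex, was lower at -0.66 ± 0.13 (limma adjusted p = 0.00398), and alanine aminotransferase (Gpt) at -0.58 ± 0.20 (limma adjusted p = 0.0435). Lactate dehydrogenase A (Ldha), which turns pyruvate to lactate, was not called, at 0.06. Neither was Ldhb, at 0.82 (limma adjusted p = 0.462), or the transporter Slc16a1, at 0.53 (limma adjusted p = 0.226).

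Other matrix complexes that use DLD, those for oxoglutarate, branched-chain keto acids and glycine, were listed with 13 genes, of which 11 have a probe and 8 were tested. By limma 0 of the 8 were called, and their median was -0.04. At an unadjusted p under 0.05, 1 was lower and 1, Ppm1k, higher. With median scaling 1 was called higher, beside 23.2% of all probes, and relative to the median change 2 were, beside 19.7%. Ppm1k, a phosphatase for the branched-chain complex, was above background on 4 treated and 0 control arrays. It entered the test through the treated rats, so its change is not given and these higher counts are not read as a result. Bckdha, the decarboxylase subunit of that complex, was not called, at -0.37 ± 0.16 (SE, limma adjusted p = 0.0936).

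Known transcriptional regulators of Pdk4 were listed with 10 genes, of which 8 have a probe and 7 were tested: 2 were higher, 0 lower and 5 not called, with a median of 0.05, beside 16.3% higher over all probes. Among the called genes is Ppargc1a, a coactivator of mitochondrial genes, whose probe was above background on 4 treated and 1 of 4 control arrays and so entered the test through the treated rats. Its level of 7.32 in treated muscle was at least 3.20-fold higher than the control level, for which each array's value was raised to the lowest signal of its probes above background. Klf15, a factor of the fasting response, was above background on all arrays and rose by 1.27 ± 0.22 (SE, limma adjusted p = 0.00193). Median scaling and cyclic loess gave the same counts for this list, beside 23.2% and 19.4% of all probes higher. Pdk4 itself was called lower with quantile normalization and lay above 0 with median scaling. Of 11 genes known to respond to fasting in muscle, 10 have a probe and 9 were tested: 1 was higher, 1 lower and 7 not called, with a median of -0.27, beside 16.3% higher and 24.2% lower over all probes. With median scaling 3 of them were called higher and 0 lower, beside 23.2% and 1.91% of all probes. Cyclic loess gave 2 and 0, beside 19.4% and 8.02%. Cd36, a fatty acid transporter, rose by 1.36 ± 0.30 (SE, limma adjusted p = 0.00704), and Plin5, a lipid droplet protein, was lower by -0.89 ± 0.29 (SE, limma adjusted p = 0.0371). Over the 5 lists 4 genes were higher and 5 lower with quantile normalization, 13 and 0 with median scaling, 7 and 2 with cyclic loess, and 9 and 2 relative to the median change. The all-probe shares higher and lower were, in that order, 16.3% and 24.2%, 23.2% and 1.91%, 19.4% and 8.02%, and 19.7% and 8.53%. The genes counted include Ppargc1a and Ppm1k, which entered the test through the treated rats, so the higher totals are not read as a result. Me2 and Foxo3, also tested, were likewise above background on 4 treated and 1 control array, and Pdk3 on 3 treated and 1 control array.

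**Figure D5:**
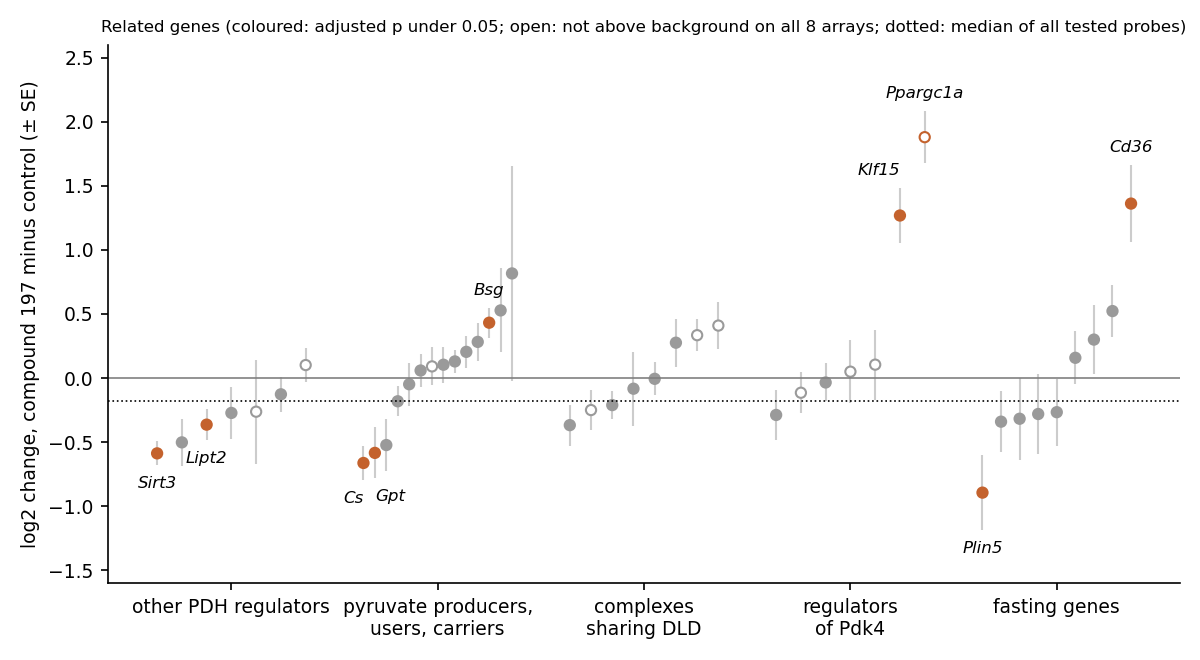
Log2 change with its SE (vertical axis, quantile normalization) of each tested gene of 5 related lists (horizontal axis), coloured where the limma adjusted p was under 0.05, open where the probe was not above background on all 8 arrays, and with a dotted line at the median change of all tested probes. Of the filled coloured points Cd36 (1.36) and Klf15 (1.27) stand highest and Plin5 (-0.89) lowest. The point of Ppargc1a is open and its size is not settled. With median scaling no gene of these lists was called lower, beside 1.91% of all tested probes.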

How the data were processed

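Per the file headers, the authors deposited 1 table of non-normalized intensity values and 1 of normalized intensity values for the 8 arrays, each with detection p-values. The sources used here name no scanner software, background handling or normalization method. All 8 columns of the normalized table hold the same sorted values, and the series matrix equals it. The non-normalized intensities were corrected for background with neqc of limma 3.58.1 in R 4.3.3, which infers it from the detection p-values (offset 16), then quantile-normalized and log2-transformed. The changes of dim probes, Mpc1 and Mpc2 in control muscle among them, depend on this step. Probes with a detection p under 0.05 on at least 4 of 8 arrays were tested, 9873 of 22523, with lmFit and eBayes and Benjamini-Hochberg adjustment at 0.05. Of all probes, 13793 have 1 symbol in the annotation, 0 several and 8730 are not listed, and 13752 were matched by Entrez number to RefSeq, whose start regions (GRCr8) were used. Pair ratios were compared by exact permutation, over 70 assignments on all 8 arrays and over fewer with an array left out.

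The members and lists were chosen with earlier results of these data known. All 9 member probes are named, with up to 3 called genes per direction of each related list (or the 2 with the smallest adjusted p), and the 3 named genes most like each called member. Pdk1, Ldha, Ldhb and Slc16a1, and the marker genes, were added for their roles after their values were seen. Samples were grouped by the treatment in the labels. The limma p-values set the difference between groups against the spread between rats within groups, moderated over all tested probes. Replicate numbers did not pair the arrays: same-numbered arrays had correlations of -0.128 to -0.042. Alternatives changed background, scaling, source table, filter, probe summary, variance model, block and arrays. The files name no slide or scan. Figures were drawn with matplotlib 3.10.9.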

Additional observations from a re-analysis of the deposited data

Results flagged for a closer look

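Of 52 groups of 4 rats examined, 1 held a value far from its neighbours: Pdhx in control replicate 2, at 12.26 log2 intensity, below the 12.62 to 12.66 of the other controls. Its gap to the nearest of them was 0.884 of the group's range, above Dixon's 95% critical value for 4 values. Chance alone gives such a gap in about 1 in 20 groups. Without that array the change of Pdhx was -0.51 (limma adjusted p = 0.00607) against -0.42 with it.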

How the results depend on the processing

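The rise of Mpc1 kept its direction and its call under all alternatives run, from 3.58 without background correction to 4.50 with median scaling. With median scaling the changes of the 7 enzyme and regulator genes turned positive: Pdhb 0.13, Dlat 0.18, Dld 0.19, Pdhx 0.20, Pdk2 0.36, Pdk4 0.17 and Pdp1 0.11. The median change of all tested probes was then 0.31, and of the 7 only Pdk2 lay above it. The count of members called lower was then 0, as with cyclic loess and relative to the median change, and 2477 probes in all were called against 3999. With cyclic loess Pdhb stood at -0.27, Dld at -0.19, Pdhx at -0.19, Pdk4 at -0.23 and Pdp1 at -0.26, and relative to the median change at -0.29, -0.24, -0.24, -0.26 and -0.30, none of them called. The cause was not tested. With no filter, where more probes enter the adjustment, Mpc2 (0.71) and Pdhb (-0.47) lost their calls and 1 member was higher. Dlat gained its call, at -0.38 without background correction and with normexp, -0.39 in the authors' table, and -0.40 with a detection p under 0.01 or a robust intensity trend. The related lists held 13 higher and 0 lower genes with median scaling, beside 23.2% and 1.91% of all probes. They held 7 and 2 with cyclic loess, beside 19.4% and 8.02%, and 9 and 2 relative to the median change, beside 19.7% and 8.53%. Ppargc1a and Ppm1k, which entered the test through the treated rats, are among the genes counted. Me2 and Foxo3, among the genes tested, entered in the same way. The ratio of Dlat to Pdhx turned to -0.014 with median scaling and -0.0025 in the authors' table, and that of Dlat to Dld to -0.0052 with median scaling.

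With the replicate number as a block, which the arrays do not bear out, 3242 probes were called, with Mpc2 (0.71), Pdhb (-0.47), Dld (-0.42), Pdhx (-0.42) and Pdk4 (-0.44) no longer among them, leaving 1 member higher and 1 lower. On leaving out each array in turn the change ranged from 3.75 to 4.02 for Mpc1, 0.58 to 0.88 for Mpc2, -0.57 to -0.36 for Pdhb, -0.47 to -0.29 for Dlat, -0.49 to -0.35 for Dld, -0.51 to -0.38 for Pdhx, -0.32 to -0.17 for Pdk2, -0.56 to -0.38 for Pdk4 and -0.56 to -0.44 for Pdp1. Members called numbered 1 to 2 higher and 2 to 5 lower, and all probes called 3138 to 3891. The ratios ranged from 3.07 to 3.29 for Mpc1 over Mpc2, -0.038 to 0.090 for Dlat over Pdhx, -0.059 to 0.128 for Dlat over Dld, -0.39 to -0.091 for Pdk4 over Pdk2, -0.39 to -0.11 for Pdp1 over Pdk2 and -0.11 to 0.063 for Pdp1 over Pdk4. A block for slide or scan was not run, because the files name neither. Signal over background limits Mpc2, the dimmest member probe in control muscle.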
